A study of Mus musculus with 6 samples.

Results

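The Slco genes encode the organic anion transporting polypeptides, and 8 of them are described here in mouse kidney. The members are Slco1a1, Slco1a4, Slco1a6, Slco2a1, Slco2b1, Slco3a1, Slco4a1 and Slco4c1. They were chosen by gene symbol, and they are 8 of the 57180 genes in the deposited tables and 8 of the 18092 that passed the filter on low counts. The tables name 7 other Slco genes, of which Slco1b2 also passed that filter, and these are described with their counts further on. Kidney RNA came from male wild-type C57BL/6J mice, obtained at 7 weeks of age. NP200 mice received cationic polystyrene nanoparticles by mouth at 200 mg/kg once a day for 6 weeks, and CON mice received deionized water (0 mg/kg) on the same schedule. Each group had 3 mice with 1 library each, and total RNA of the whole organ was sequenced, so a transcript can come from any cell type of the kidney. By its title the study was concerned with mitochondria, inflammation and senescence of the renal tubule, and NP200 against CON is the only comparison.

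Transporters of the Slco family span the plasma membrane and carry large amphipathic organic anions into cells without sodium. Bile acids, steroid sulphates, thyroid hormones, prostaglandins and many drugs are among their substrates. In the mouse kidney the Slco1a carriers are known from the proximal tubule, where Slco1a1 lies on the apical membrane and depends on androgen. Slco4c1 is known, from rat and human kidney, as a basolateral carrier of digoxin and thyroid hormone, and Slco2a1 is the prostaglandin transporter.

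The family shares a signature that lies at the outer edge of the sixth membrane helix, and its codons show how close the members are to one another. The sequences below are 36 coding bases from GENCODE vM21 transcripts (GRCm38), 5′ to 3′, shown because they separate the Slco1a genes from the other members. Capitals mark bases that differ from Slco1a1.
Slco1a1, Slco1a4 and Slco1a6 (chromosome 6): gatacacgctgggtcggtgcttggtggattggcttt
Slco2a1 (chromosome 9): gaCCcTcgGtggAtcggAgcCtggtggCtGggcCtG
Slco2b1 (chromosome 7): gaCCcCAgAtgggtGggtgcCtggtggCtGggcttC
Slco3a1 (chromosome 7): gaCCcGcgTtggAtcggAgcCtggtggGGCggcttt
Slco4a1 (chromosome 2): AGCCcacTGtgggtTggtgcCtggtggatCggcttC
Slco4c1 (chromosome 1): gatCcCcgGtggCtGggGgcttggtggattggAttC

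The 3 Slco1a genes carried the same 36 bases, and the other 5 members differed from them at 8 to 11 positions. Around this signature lies a longer stretch that Slco1a1, Slco1a4 and Slco1a6 share without a mismatch, 96 bases from coding base 673 of Slco1a1, with the signature codons in capitals.
Shared stretch: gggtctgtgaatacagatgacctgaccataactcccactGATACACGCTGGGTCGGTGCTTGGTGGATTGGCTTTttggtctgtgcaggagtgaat
Over the whole coding sequence the 3 Slco1a pairs were 83.9% to 86.7% identical, against 52.4% to 61.0% for the other 25 pairs of members. Of all 50-base words in a gene's transcripts, 1.64% for Slco1a1, 1.61% for Slco1a4 and 2.22% for Slco1a6 also occurred in another Slco gene, and 0 did for the other 5 members. A read that lies wholly within such shared bases cannot be placed on 1 gene by its sequence alone, while a read that reaches past them may be. The deposited expected counts were not whole numbers in any of the 6 libraries for Slco1a1, Slco1a4, Slco1a6 and Slco2b1, and were whole in all 6 for the other members. Slco2b1 shared 0 words, and words were compared only within the family, so the genes behind the fractions were not determined. For reads that lie wholly within shared words the split among the Slco1a genes is uncertain. These words make up only a small share of the sequence of these genes.

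The windows of 250 bases before the gene start, from RefSeq (GRCm38.p6), also separated the Slco1a genes by base composition. They held 40.4% G and C at Slco1a1, 39.2% at Slco1a4 and 36.4% at Slco1a6. The 7 windows matched to Slco2a1, Slco2b1, Slco4a1 and Slco4c1 held 52.8% to 66.4%, where the median of all windows was 52.4% (quartiles 45.2% and 61.2%). Windows were matched for 7 of the 8 members, and Slco3a1 is the member without one. The letters TATAAA, searched on both strands, occurred in the windows of Slco1a1 and Slco2a1 and in 12.4% of 32851 windows. The Slco2a1 match lay on the gene's own strand, from base -29. Those of Slco1a1 lay on the opposite strand, from bases -209 and -99.

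The libraries held 19408534 to 23793640 expected counts in NP200 and 23420454 to 26292760 in CON. The 8 members together took 0.114%, 0.134% and 0.129% of the counts in NP200 mice 1, 2 and 3, against 0.143%, 0.148% and 0.136% in CON mice 1, 2 and 3. The 10 proximal tubule markers were detected in every library, with Lrp2 at 166986 to 217548 counts. NP200 1 and CON 3 stood apart through adipocyte transcripts, with 444, 0 and 2 counts of Adipoq in NP200 mice against 0, 1 and 130 in CON mice. In all 6 libraries the adrenal cortex genes Cyp11b1, Cyp11b2 and Cyp21a1 were at 0.

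Levels between members are compared in TPM, a transcript share corrected for transcript length. Slco1a6 and Slco1a1 were the most abundant, with means of 125.9 and 118.9 TPM over the 6 libraries, and their ranges overlapped. Slco3a1 followed at 23.1 TPM and was separate from the members above and below it in every library. Slco4c1 and Slco2b1, at 4.62 and 4.60 TPM, overlapped with each other. Slco1a4, Slco2a1 and Slco4a1 formed the lowest group, at 1.63, 1.43 and 1.37 TPM, and their ranges overlapped too. Slco4a1 is the member that disturbs this order, because 1 NP200 library reached 3.89 TPM. Slco1a1 and Slco1a6 together made up 84.6% to 87.5% of the members' summed TPM in NP200 and 87.0% to 87.6% in CON. Transcripts of the family in these kidneys thus came mostly from 2 Slco1a genes in both groups.

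**Figure D1:**
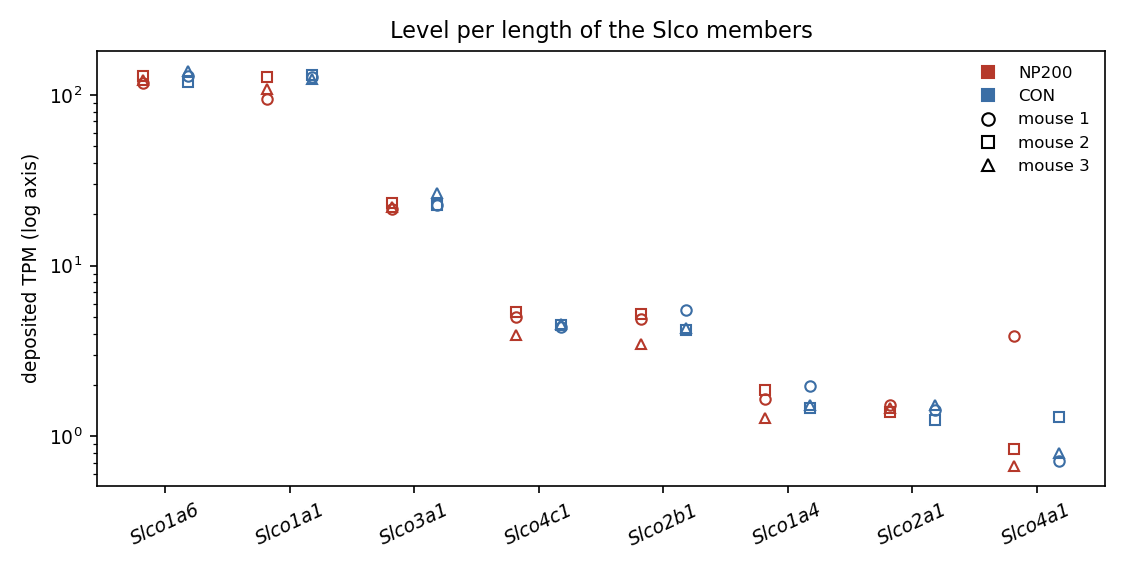
Deposited TPM of the 8 Slco members on a log axis, 1 point per mouse, with NP200 left of CON for each gene. Slco1a6 and Slco1a1 lie near 100 TPM, Slco3a1 near 20 TPM, and NP200 mouse 1 stands above the other points of Slco4a1.

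No member passed the test between NP200 and CON. In edgeR's quasi-likelihood test with Benjamini-Hochberg adjustment over all 18092 genes, 0 of 8 members had an adjusted p under 0.05, against 0% of all genes, and the members' adjusted p ran from 0.625 to 0.995. At an unadjusted p under 0.05 there were 3 members, Slco1a1, Slco1a6 and Slco3a1, all with lower values in NP200, while 7.19% of all genes reached that level and 3.5% did so with lower values in NP200. DESeq2 and limma-voom put the same 3 members under that level and called 0 of the 8. These 3 are also the only members above 100 CPM (counts relative to library size, scaled by TMM), and among the 1613 genes at or above that level 6.94% had an unadjusted p under 0.05 with lower values in NP200. The members' median log2 fold change, NP200 over CON, was -0.04, and that of all genes was 0.01. The estimate was below 0 for 4 of the 8 members, against 48.1% of all genes. In 7 of 8 members the 95% interval lay within a 2-fold difference in either direction, Slco4a1 being the exception.

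Slco1a1 (ENSMUSG00000041698), the androgen-dependent apical carrier of steroid conjugates and bile acids, had 554, 761 and 720.5 CPM in NP200 mice 1, 2 and 3, against 841, 897 and 739 CPM in CON mice 1, 2 and 3. The groups overlapped, since NP200 2 lay above CON 3, and NP200 1 was the lowest of all. The means were 678 ± 109.8 CPM in NP200 and 826 ± 80.1 CPM in CON (SD, n = 3 each), with a log2 fold change of -0.28 (SE 0.12, 95% interval -0.54 to -0.03). The difference did not pass edgeR's test, with an adjusted p of 0.657 and an unadjusted p of 0.0337. Without NP200 1 the log2 fold change was -0.15, with an unadjusted edgeR p of 0.0893. Per 1000 CPM of the proximal tubule list, Slco1a1 stood at 30.8, 36.8 and 33.4 in NP200 and at 40.0, 44.2 and 35.0 in CON, so the groups overlapped on that scale as well. In bulk kidney RNA, fewer cells of a type and less RNA per cell cannot be told apart.

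Slco1a6 (ENSMUSG00000079262), its close relative, whose transcript is known in the mouse mainly from the kidney, had 298, 339 and 342 CPM in NP200 mice, against 370.1, 370.0 and 368 CPM in CON mice. All 3 NP200 values lay below all 3 CON values, and the CON mice were almost equal. The means were 326 ± 24.6 CPM in NP200 and 369 ± 1.35 CPM in CON (SD, n = 3 each), a log2 fold change of -0.18 (SE 0.07, 95% interval -0.33 to -0.02). The adjusted p in edgeR was 0.637 and the unadjusted p 0.0282. In TPM the separation was lost, with 117, 129 and 122 TPM in NP200 against 129, 119 and 139 TPM in CON. The log2 fold change in TPM was -0.07, where the median of all genes was 0.066. The authors' effective length of Slco1a6, by which TPM is divided, ranged from 1371 to 1492 bases between libraries. Without NP200 1 the log2 fold change in counts was -0.11, with an unadjusted edgeR p of 0.09995. Per 1000 CPM of the proximal tubule list the groups did not overlap, with 16.6, 16.4 and 15.8 in NP200 and 17.6, 18.2 and 17.4 in CON. Slco3a1 was apart on that scale too, at 6.84, 6.52 and 6.70 in NP200 and 7.01, 7.59 and 7.54 in CON. The share of all genes apart on it was not computed. The summed proximal tubule list itself stood at 17999.6, 20672 and 21591 CPM in NP200 and at 20996, 20322 and 21099 CPM in CON, lowest in NP200 1. Its largest parts were Lrp2, Slc27a2 and Slc34a1, at 7197, 3690 and 3315 CPM in NP200 1. The ratio of Slco1a1 to Slco1a6 in CPM was 1.86, 2.24 and 2.11 in NP200 and 2.27, 2.43 and 2.01 in CON, and these ranges overlapped.

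Slco1a4 (ENSMUSG00000030237), known in the mouse from liver and from the endothelium of the blood-brain barrier, was far less abundant than its chromosome 6 relatives. It had 6.98, 6.60 and 5.20 CPM in NP200 mice, against 7.01, 6.89 and 4.76 CPM in CON mice. The groups overlapped nearly completely, and mouse 3 was the lowest in each. The log2 fold change was 0.01 (SE 0.18, 95% interval -0.39 to 0.41), with an edgeR adjusted p of 0.995. Its counts were 100 to 180 per library, and its sign was not stable when single libraries were left out.

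**Figure D2:**
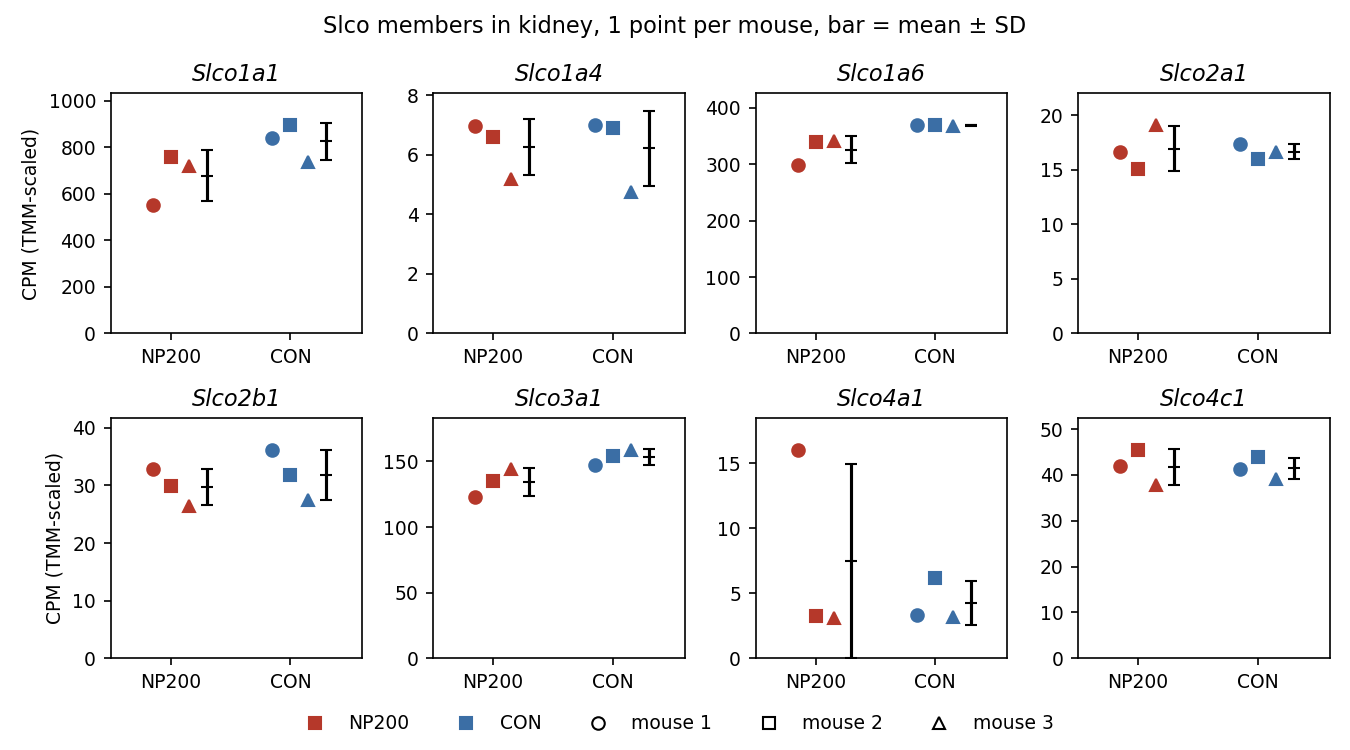
TMM-scaled CPM of each Slco member, 1 point per mouse with the mean ± SD beside each group, NP200 left of CON and each axis starting at 0. The NP200 points of Slco1a6 and Slco3a1 lie below all CON points, and 1 NP200 mouse stands alone for Slco4a1 at 16.0 CPM.

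Slco3a1 (ENSMUSG00000025790), a broadly expressed carrier that takes up prostaglandins and thyroxine in human studies, had the lowest p of the members. It had 123, 135 and 145 CPM in NP200 mice, against 147, 154 and 159 CPM in CON mice. The groups did not overlap, although NP200 3 and CON 1 were close. The means were 134 ± 10.8 CPM in NP200 and 153.5 ± 5.98 CPM in CON (SD, n = 3 each), a log2 fold change of -0.20 (SE 0.07, 95% interval -0.36 to -0.03). The adjusted p in edgeR was 0.625 and the unadjusted p 0.0232, and 669 genes had a lower p. In TPM the groups overlapped, with 21.5, 23.3 and 22.0 TPM in NP200 against 22.6, 22.7 and 26.5 TPM in CON. The log2 fold change in TPM was -0.10, where the median of all genes was 0.066. Without NP200 1 the log2 fold change in counts was -0.13, with an unadjusted edgeR p of 0.0915. Slco1a6 and Slco3a1 were the 2 of 8 members whose groups did not overlap in CPM, both with NP200 below CON. Over all genes 12.9% had groups that did not overlap, 6.32% with NP200 below CON, and among genes of at least 100 CPM 11.3% did so in that direction.

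The genes whose CPM profile over the 6 libraries was most like that of Slco3a1 were Polr2h, an RNA polymerase subunit, Rcor1, a corepressor, and Iba57, an iron-sulphur cluster protein. Their root mean square differences from it were 0.0091, 0.0293 and 0.0297 log2 units, out of 12789 named genes searched.

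Slco4c1 (ENSMUSG00000040693), the basolateral carrier known from rat and human kidney, had 42.0, 45.5 and 37.8 CPM in NP200 mice, against 41.3, 43.8 and 39.2 CPM in CON mice. NP200 held both the highest and the lowest value. The log2 fold change was 0.01 (SE 0.08, 95% interval -0.17 to 0.20), with an edgeR adjusted p of 0.983.

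Slco2b1 (ENSMUSG00000030737), which takes up estrone sulphate and drugs, had 32.8, 30.0 and 26.5 CPM in NP200 mice, against 36.2, 31.7 and 27.5 CPM in CON mice. CON 1 was the highest library and NP200 3 the lowest, and the groups overlapped. The log2 fold change was -0.10 (SE 0.11, 95% interval -0.34 to 0.15), with an edgeR adjusted p of 0.864.

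Slco2a1 (ENSMUSG00000032548), the prostaglandin transporter that clears prostaglandins from outside the cell, had 16.6, 15.1 and 19.1 CPM in NP200 mice, against 17.3, 16.0 and 16.7 CPM in CON mice. The CON values lay inside the range of the NP200 values. The log2 fold change was 0.02 (SE 0.10, 95% interval -0.20 to 0.24), with an edgeR adjusted p of 0.977. The sources used here do not state whether the library kit keeps strand information. The spans of Slco1a6, Slco2a1, Slco2b1, Slco3a1 and Slco4c1 each overlap a gene on the opposite strand in GENCODE vM21. Whole gene spans were compared, introns included, so whether reads of a partner enter the counts of these 5 was not tested.

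**Figure D3:**
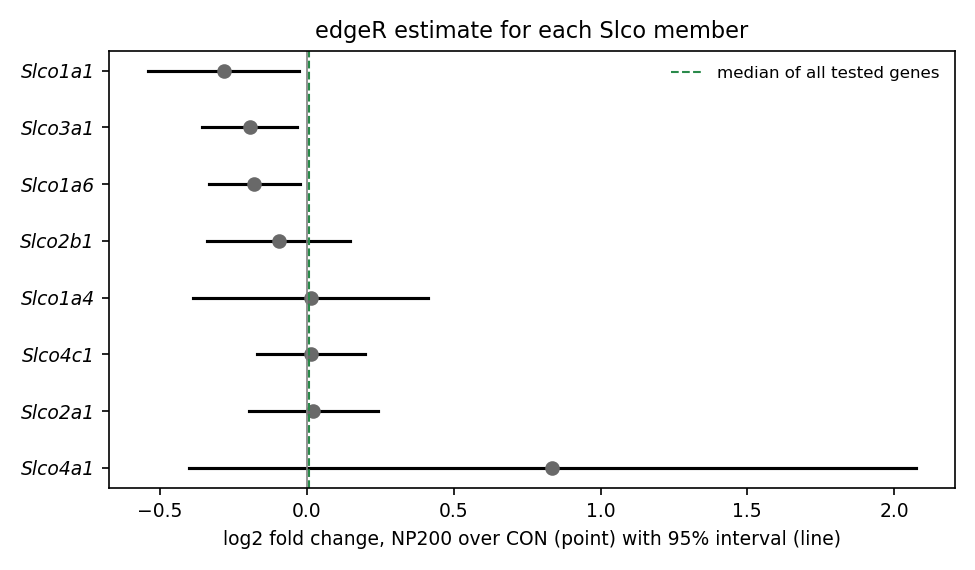
edgeR log2 fold change, NP200 over CON, of each Slco member (point) with its 95% interval (line), and the median of all tested genes as a dashed line. Slco1a1, Slco3a1 and Slco1a6 lie between -0.28 and -0.18, and the interval of Slco4a1 is the widest.

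Slco4a1 (ENSMUSG00000038963), a carrier of thyroid hormones in human studies, varied most among the members. It had 16.0, 3.21 and 3.12 CPM in NP200 mice, against 3.31, 6.20 and 3.19 CPM in CON mice, from 395, 77 and 60 counts in NP200 and 85, 143 and 75 counts in CON. A single library, NP200 1, stood above the other 5, and NP200 3 was the lowest of all. The means were 7.46 ± 7.43 CPM in NP200 and 4.23 ± 1.70 CPM in CON (SD, n = 3 each), a log2 fold change of 0.84 (SE 0.56, 95% interval -0.40 to 2.08). The adjusted p in edgeR was 0.771. Without NP200 1 the log2 fold change was -0.41, and without both NP200 1 and CON 3 it was -0.57, so the sign rests on that library.

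Of the 16 cell type lists, 5 had their highest sum in NP200 1 (urothelium, principal cell, adipocyte, endothelium and mural cell) and 4 their lowest (proximal tubule, distal convoluted tubule, intercalated cell and podocyte). For mural cells NP200 1 was close to CON 1, at 202.9 and 201.9 CPM. NP200 3 held the highest sum in 5 lists, namely these last 4 and hepatocyte. It held the lowest sum in 5 (thick limb, macrophage, fibroblast, T cell and adrenal cortex). The 5 urothelium markers summed to 17.4, 2.50 and 2.86 CPM in NP200 mice and 5.46, 3.82 and 1.70 CPM in CON mice, with the uroplakin Upk1b at 187, 17 and 27 counts in NP200 and 51, 30 and 15 counts in CON. The 4 principal cell markers summed to 243.6, 145.5 and 117.3 CPM in NP200 and 130.4, 128.8 and 112.1 CPM in CON. Within this list Aqp2 stood at 148.7, 61.1 and 46.1 CPM in NP200 mice, and Fxyd4 at 27.9, 17.3 and 10.5 CPM. Aqp3 differed less between these mice, at 53.0, 53.9 and 46.9 CPM, as did Hsd11b2, at 14.0, 13.2 and 13.8 CPM. The 6 adipocyte markers summed to 88.1, 6.22 and 7.64 CPM in NP200 and 6.51, 6.29 and 32.0 CPM in CON. In the other direction, the 4 intercalated cell markers summed to 100.5, 147.5 and 161 CPM in NP200 and 138, 144 and 149 CPM in CON. CON 2, the second highest library for Slco4a1, had 6.29 CPM in the adipocyte list and 3.82 CPM in the urothelium list. Slco1a1, Slco1a6 and Slco3a1, by contrast, were lowest in NP200 1. The part of these markers in the member values was not tested.

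**Figure D4:**
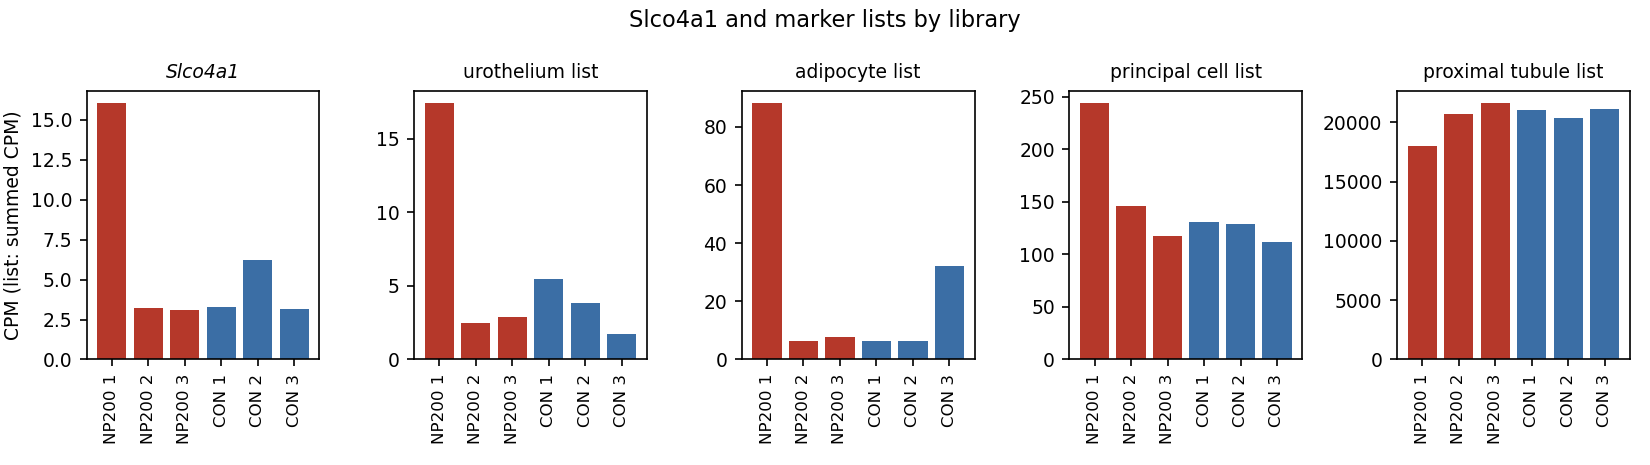
Slco4a1 and the summed markers of 4 cell types by library, as bars of TMM-scaled CPM from 0, with the NP200 libraries left of the CON libraries. NP200 1 is the highest bar for Slco4a1 and for the urothelium, adipocyte and principal cell lists, and the lowest for the proximal tubule list.

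Of the other Slco genes, Slco1b2, the main liver carrier of the family in the mouse, was the only one that passed the filter. It had 14, 26 and 33 counts in NP200 mice, against 36, 34 and 23 counts in CON mice, and the groups overlapped (log2 fold change -0.22, SE 0.38, edgeR adjusted p = 0.919). Slco1c1, a thyroxine carrier of brain vessels, had at most 1 count in NP200 and at most 4 in CON. Slco5a1 had at most 3 counts in NP200 and at most 7 in CON. Slco1a5, Slco6b1, Slco6c1 and Slco6d1 were at 0 counts in all 6 libraries.

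Genes that share substrates, location or regulation with the members were examined as 6 lists, and 0 genes of any list passed edgeR's test. DESeq2 called 4 of the list genes (Acsm3, Dio1, Nr1h4 and Slc22a7, all lower in NP200). Over all genes DESeq2 called 55 of 31316, with 35 of them lower in NP200. The lists were chosen with earlier results of these data known. The list of tubular organic anion transporters had 14 tested genes, with 4 higher and 3 lower in NP200 at an unadjusted p under 0.05 (all genes, 3.69% higher and 3.5% lower), 10 of 14 below 0 and a median of -0.09 in log2 fold change. Slc22a7, an organic anion transporter, averaged 74.5 ± 8.02 CPM in NP200 and 119.5 ± 25.7 CPM in CON (SD, n = 3 each), with a log2 fold change of -0.68 (SE 0.14). Abcb1b, a drug efflux pump, averaged 10.1 ± 0.603 CPM in NP200 and 6.54 ± 0.775 CPM in CON (SD, n = 3 each), with a log2 fold change of 0.62 (SE 0.13). The groups did not overlap for either gene, and each had an edgeR adjusted p of 0.318. Pdzk1, the scaffold protein that binds the tail of the Slco1a1 carrier, had a log2 fold change of -0.17 (SE 0.08) and overlapping groups. It is named outside the rule for named genes, for its link to Slco1a1.

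Androgen-regulated kidney genes, listed because androgen maintains Slco1a1 in male mice, were below 0 in 7 of 7 tested genes (median -0.33 in log2 fold change), and 4 of 7 had an unadjusted p under 0.05. Over all genes 48.1% were below 0 and 3.5% were lower in NP200 at that level, or 6.94% among genes of at least 100 CPM. Some cell type lists lay the same way, with erythroid markers below 0 in 5 of 5 genes (median -0.49, 5 of 5 at an unadjusted p under 0.05), fibroblast markers in 5 of 5 (median -0.28) and macrophage markers in 8 of 8 (median -0.18), and their part in these values was not tested. For the androgen-regulated list the count below 0 became 5 of 7 with scaling by library size, with TPM and without NP200 1. Acsm3, an acyl-CoA synthetase of the male tubule, averaged 1165 ± 147 CPM in NP200 and 1612 ± 238 CPM in CON (SD, n = 3 each), with a log2 fold change of -0.47 (SE 0.12). Odc1, the first enzyme of polyamine synthesis, averaged 1129 ± 240.4 CPM in NP200 and 1608 ± 209 CPM in CON (SD, n = 3 each), with a log2 fold change of -0.51 (SE 0.14). Their edgeR adjusted p were 0.477 and 0.524. The groups did not overlap for either of these genes, while those of Slco1a1 did.

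Regulators reported for Slco genes had 14 tested genes, 1 higher and 2 lower at an unadjusted p under 0.05, with a median of -0.01. Nr1h4, the bile acid receptor, averaged 104.8 ± 24.4 CPM in NP200 and 148 ± 12.8 CPM in CON (SD, n = 3 each), with a log2 fold change of -0.50 (SE 0.14; edgeR adjusted p = 0.526). The groups did not overlap.

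Thyroid hormone handling had 6 tested genes, 0 higher and 1 lower at an unadjusted p under 0.05, with a median of -0.03. That gene was Dio1, the deiodinase that activates thyroxine, with 14.0, 12.6 and 12.4 CPM in NP200 mice, against 19.9, 22.5 and 18.2 CPM in CON mice. The groups did not overlap, and the log2 fold change was -0.64 (SE 0.10, edgeR adjusted p = 0.218). Slc16a10, an aromatic amino acid and thyroid hormone carrier, averaged 46.6 ± 4.12 CPM in NP200 and 50.8 ± 4.34 CPM in CON (SD, n = 3 each), with a log2 fold change of -0.12 (SE 0.09), with overlapping groups.

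Prostaglandin synthesis, breakdown and receptors, the setting of Slco2a1, had 14 tested genes, 0 higher and 2 lower at an unadjusted p under 0.05, with a median of -0.02. Hpgd, the enzyme that degrades prostaglandins once they are taken up, averaged 10.3 ± 1.45 CPM in NP200 and 13.4 ± 1.62 CPM in CON (SD, n = 3 each), with a log2 fold change of -0.37 (SE 0.13; edgeR adjusted p = 0.594), with overlapping groups. Ptges3, a prostaglandin E synthase and co-chaperone, averaged 76.5 ± 4.63 CPM in NP200 and 87.4 ± 5.67 CPM in CON (SD, n = 3 each), with a log2 fold change of -0.19 (SE 0.07; edgeR adjusted p = 0.636).

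The list of conjugation enzymes had 9 tested genes, 1 higher and 2 lower at an unadjusted p under 0.05 in edgeR, with a median of -0.02. It covers enzymes that make sulphates and glucuronides, but it also holds Ephx1 and Gusb, which make neither. Ephx1 was the gene that was higher, and Gusb was 1 of the 2 that were lower. Ugt2b38, a glucuronosyltransferase of a multigene family whose reads can be shared, averaged 1105 ± 95.1 CPM in NP200 and 1338 ± 154 CPM in CON (SD, n = 3 each), with a log2 fold change of -0.28 (SE 0.10; edgeR adjusted p = 0.594). Ephx1, an epoxide hydrolase, averaged 39.0 ± 11.8 CPM in NP200 and 27.9 ± 2.60 CPM in CON (SD, n = 3 each), with a log2 fold change of 0.49 (SE 0.17; edgeR adjusted p = 0.606). With scaling by library size and with TPM, the medians of the regulator, thyroid, prostaglandin and conjugation lists turned positive. The median log2 fold change of all genes also rose in these settings, to 0.051 and 0.066.

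**Figure D5:**
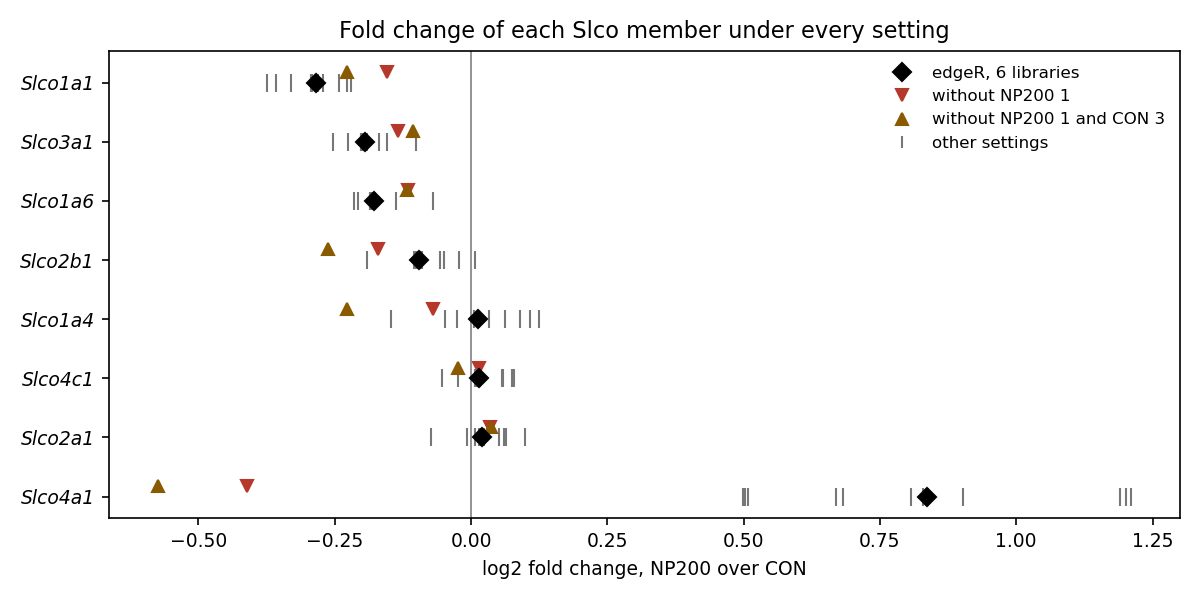
Log2 fold change, NP200 over CON, of each Slco member in edgeR with 6 libraries (diamond), without NP200 1 (red triangle), without NP200 1 and CON 3 (brown triangle) and under the other settings (ticks). Slco1a1, Slco1a6 and Slco3a1 lie below 0 in all of them, between -0.38 and -0.07, while Slco4a1 ranges from -0.57 to 1.21.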

How the data were processed

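Kidney RNA of 6 mice was sequenced as 1 library each on a NovaSeq X Plus, per the labels' protocols. RSEM 1.3.3, STAR 2.7.9a, Trim Galore 0.6.6, FastQC and the build GRCm39 are named in the submitters' processing notes, and the sources used here name no annotation release. Per the file headers, each gene table holds RSEM's expected counts with TPM and FPKM beside them. The expected counts were deposited without normalization, and RSEM divides reads that fit several genes. TPM was scaled by the authors for length and library, and 55.5% to 59.4% of it fell to the 7SL genes Rn7s1 and Rn7s2. FPKM was deposited and not used.

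Symbols came from GENCODE vM21 (51884 of 57180 genes by gene ID, 296 by transcript ID). After rounding and filterByExpr, TMM scaling was applied and group was the only term in edgeR 4.0.16's quasi-likelihood test (R 4.3.3), with Benjamini-Hochberg adjustment at 0.05. Standard errors are the log2 fold change over the root of F. The 95% intervals cover the estimated spread between mice and counting error, and had a median half-width of 0.282 log2 units. The labels name no molecular identifiers, so PCR copies may be counted. The step was tested on simulated counts. Alternatives were DESeq2 1.42.0, limma-voom (limma 3.58.1), scaling by library size, removal of Rn7s1 and Rn7s2, no filter on low counts, log2(TPM + 0.1) with limma, the replicate number as a block, and libraries left out. Coding sequences were aligned with Biopython 1.88. Members, lists and markers were chosen with earlier results of these data known. The text names all members, the 2 genes of lowest p in each list, and the 3 profiles nearest to the member of lowest p. A list gene that this rule takes is not reported here. Gusb stands in 2 lists, and Slc22a6 and Slc22a7 stand in a transporter list and the proximal tubule list.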

Additional observations from a re-analysis of the deposited data

How the results depend on the processing

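Under all 14 alternatives 0 of 8 Slco members were called. Over all genes, where edgeR with 6 libraries called 0 (1301 at an unadjusted p under 0.05), DESeq2 called 55 (20 higher, 35 lower in NP200), the fit with no filter on low counts 207 (100 higher, 107 lower), the fit without CON 3 and NP200 1 27 (11 higher, 16 lower), and leaving out 1 library gave 0 to 5. Genes called in the lists numbered 4 with DESeq2 (Acsm3, Dio1, Nr1h4 and Slc22a7, all lower), 10 with no filter and 3 without CON 3 and NP200 1 (Acsm3, Dio1 and Slc22a7), with 0 when 1 library was left out. The causes were not tested.

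The same-numbered mice did not deviate together in every pair (correlations 0.0436, -0.0230 and 0.103). Mice of unlike number gave correlations of -0.122 to 0.0763. Values this near 0 cannot decide whether the numbers pair the mice. With the replicate number as a block 0 genes were called, 1341 had an unadjusted p under 0.05, and the members' lowest edgeR adjusted p was 0.598.

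Slco1a1, Slco1a6 and Slco3a1 kept their sign under all 14 alternatives, with an unadjusted p under 0.05 in 10, 9 and 8 of them. Slco4a1 (0.83, no filter on low counts) and Slco2b1 (-0.26, without CON 3 and NP200 1) reached that level in 1 alternative each. No member reached that level without NP200 1, without CON 2 or in TPM. Signs turned for Slco1a4 (-0.048 in TPM, -0.15 to 0.12 with 1 library left out, -0.23 without CON 3 and NP200 1), Slco4a1 (-0.41 to 1.21 and -0.57 in the same 2 ways), Slco4c1 (-0.053 to 0.079 and -0.023), Slco2a1 (-0.073 to 0.099 with 1 library left out) and Slco2b1 (-0.19 to 0.0074 with 1 library left out). Their cause was not tested. The spread between libraries limits Slco4a1, with 395, 77 and 60 counts in NP200 and 85, 143 and 75 in CON. Groups of 3 limit all members.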
